A study of Drosophila melanogaster with 6 samples.

Results

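The genes described here are 9 regulators and executors of apoptosis in Drosophila: grim, reaper (rpr), sickle (skl), head involution defective (hid), Diap1, Dronc, Drice, Dcp-1 and Buffy. They were taken by symbol or gene identifier from a table of 17321 genes, for their known roles and not for their values, although earlier results of the same data were known. They were measured by RNA-seq in enteroblasts (EBs), the progenitors that lie between intestinal stem cells and the differentiated cells of the adult midgut. Sox21a EBs came from females homozygous for a Sox21a mutation, a small CRISPR/Cas9 deletion that shifts the reading frame within the DNA-binding HMG domain. Control EBs came from Sox21a/+ females by the methods, although the labels call them wild-type. All flies carried Su(H)GBE-Gal4 with UAS-CD8::GFP, so GFP marked cells that respond to Notch, whatever their type, and all were kept at 25 °C for 16 to 18 days as adults. Anterior midgut cells with GFP and without propidium iodide, a dye that enters dead cells, were sorted from pooled flies, with 3 libraries in each group.

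Apoptosis in flies is controlled largely at the inhibitor of apoptosis protein Diap1, which binds caspases and holds them inactive. Grim, Reaper, Sickle and Hid carry a short N-terminal motif through which they bind Diap1 and displace the caspases, and their genes lie together on chromosome arm 3L. The freed initiator caspase Dronc, assembled on the adaptor Ark, cleaves the effector caspases Drice and Dcp-1, which dismantle the cell. Buffy is one of the Bcl-2 family proteins of the fly.

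The libraries held between 38646207 and 45955837 normalized-read steps in Sox21a EBs and between 37286049 and 42961209 in control EBs, a step being the value of 1 read in that library. The smallest value in every library was 2 steps, and a value of 5 steps or less, which was 4.92 to 5.58 normalized reads, was taken as the detection limit. Because the RNA was amplified, reads do not each stand for a molecule, and these limits and the intervals below cover counting error only. Correlations across transcripts were 0.985 to 0.991 among the Sox21a libraries, 0.974 to 0.989 among the control libraries and 0.915 to 0.930 between the groups. Control replicate 1 was the least like its group (0.974 and 0.978 with the other control libraries, against 0.989 between those), and without it the calls over all transcripts were 3424 higher and 1627 lower, in place of 2693 and 1293. Without control replicate 1, the 9 genes gave the same calls except that Buffy was also called lower, as given below. Sox21a replicate 1 had the highest sum of enteroendocrine markers, though not the highest level of each of them. The Sox21a transcript averaged 16065 ± 2566 normalized reads in Sox21a EBs and 16080 ± 1718 in control EBs (SD, n = 3 each), which does not check the genotype because the mutation is a frameshift. Progenitor markers were present in every library, with summed levels of 38880 to 52175 in Sox21a EBs and 75615 to 95182 in control EBs, and 3 of the 6 markers were lower in Sox21a EBs. Summed enterocyte markers were 19934 to 24478 in Sox21a EBs and 54795 to 91993 in control EBs, with 6 of 7 lower. Summed enteroendocrine markers were 2261 to 5953 in Sox21a EBs and 783 to 1225 in control EBs. Of the 7 tested, 2 (Tk and CCHa2) were higher in Sox21a EBs and 1 (pros, at 66.7 against 170) was lower. Summed tracheal markers were 1893 to 2583 in Sox21a EBs and 700 to 967 in control EBs, with 3 of the 4 tested higher. Most of this sum was btl, at 1889 ± 384 in Sox21a EBs and 767 ± 147 in control EBs. The paper saw a btl reporter in part of the Sox21a EBs, and in no intestinal cells of wild-type midguts. Visceral muscle markers summed to 137 to 143 in Sox21a EBs and 54.8 to 102 in control EBs, with 1 of the 3 tested, sls, higher. Haemocyte markers summed to 111 to 133 in Sox21a EBs and 241 to 280 in control EBs, nearly all of it from srp, which was lower, while He was at the smallest value in every library and the 5 markers other than srp reached at most 12.4. By the test given below, 23.6% of all transcripts were called higher and 11.3% lower, beside these counts of markers. The part of other cell types in the values below was not tested, and in such bulk samples fewer cells of a type and less RNA per cell cannot be told apart.

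Among the 9 genes, grim was almost lost from Sox21a EBs while rpr, its neighbour of like function, was above the detection limit only in them, and the caspases Dronc and Dcp-1 were higher in Sox21a EBs. Differences were tested with limma on log2(normalized reads + 1) over the 11400 transcripts averaging 10 or more, with a call at a Benjamini-Hochberg adjusted p under 0.05. Of the 9 genes, 8 passed this filter, 3 of which were called higher in Sox21a EBs (rpr, Dronc and Dcp-1), 1 lower (grim) and 4 not called (hid, Diap1, Drice and Buffy). The gene grim passed only through control EBs and rpr only through Sox21a EBs, with means of 4.99 and 3.19 in the other group. Their tests thus rest on the group in which each was high. Over all transcripts tested 23.6% were called higher and 11.3% lower, against 37.5% and 12.5% of the 8 genes. The libraries of the 2 groups did not overlap for 5 of the 8, or 62.5%, against 51.4% of all transcripts tested. The median log2 fold change of the 8 genes was -0.06, against 0.21 for all transcripts. Values deposited with these size factors thus centred above 0, and after rescaling on transcripts averaging 100 or more the median was 0.02 and the calls over all transcripts were 1892 higher and 1916 lower, in place of 2693 and 1293. The calls of the 8 genes were the same after rescaling. Exact permutation of 3 against 3 libraries allows no p below 0.1 and was not used for single genes.

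**Figure D1:**
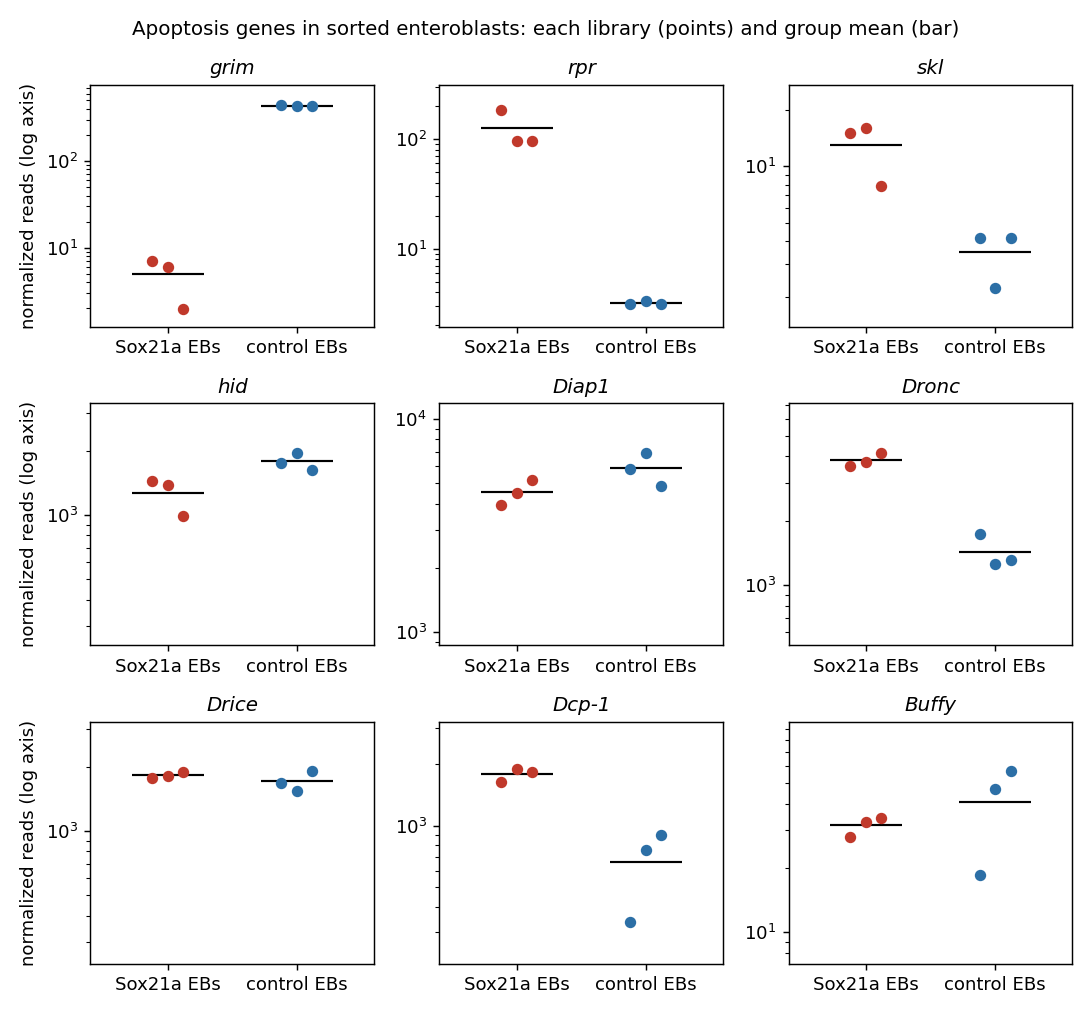
Normalized reads of the 9 genes in each of the 3 Sox21a libraries (left, red) and 3 control libraries (right, blue) on a log axis whose range differs between panels; the bar is the group mean. The groups lie apart for grim, rpr, skl, hid, Dronc and Dcp-1 and overlap for Diap1, Drice and Buffy.

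The gene grim (FBgn0015946, a single-exon gene at 18302719 to 18304417 on the minus strand of 3L, release 6 of the genome) had 7, 6 and 1.97 normalized reads in Sox21a EBs, against 444, 429 and 431 in control EBs. The control libraries were nearly equal, with an SD of 8.03 around a mean of 435, and 1 Sox21a library was at its smallest possible value. This gave a log2 fold change of -6.31 (SE 0.36, limma adjusted p = 5.5e-05). Above the smallest value, 9 reads were counted in the 3 Sox21a libraries together and 1224 in the control libraries, a ratio of Sox21a over control of 0.0069 once scaled (exact 95% interval 0.00315 to 0.0131). This interval assumes that 2 reads were added to each count, and the ratio of the mean values as deposited was 0.0115. The fitted value ran from -7.12 with the smallest value subtracted to -4.91 with a pseudocount of 10.

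For rpr (FBgn0011706, a single-exon gene at 18397535 to 18398435 on the minus strand of 3L) the values were 184, 96.0 and 96.4 normalized reads in Sox21a EBs and 3.10, 3.35 and 3.10 in control EBs. Each control library held 3 steps, or 1 read above the smallest value, which is under the detection limit, and the lowest Sox21a library was far above all of them. The mean was 125 ± 50.7 in Sox21a EBs and 3.19 ± 0.14 in control EBs (SD, n = 3 each). Its log2 fold change was 4.85 (SE 0.27, limma adjusted p = 4.7e-05), and between 3.30 and 5.84 over the alternatives of pseudocount and subtraction. Above the smallest value there were 372 reads in Sox21a EBs and 3 in control EBs, a ratio of 116 with an exact 95% interval of 39.5 to 567 if 2 reads were added to each count. The ratio of the deposited means was 39.4, which lies just outside that interval. The library with the highest rpr, Sox21a replicate 1, also had the highest sum of enteroendocrine markers, 5953 against 2261 and 2923 in the other Sox21a libraries. The marker NPF was instead highest in Sox21a replicate 3. Replicate 1 was also the highest in p53 (10259 against 8648 and 6555) and Corp (798 against 682 and 485), described below. Whether any of these bears on rpr was not tested. Without Sox21a replicate 1 the log2 fold change of rpr was 4.54 (limma adjusted p = 0.00013).

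The gene skl (FBgn0036786, at 18438561 to 18439942 on the minus strand of 3L), the last of these neighbours, had 15.0, 16.0 and 7.87 normalized reads in Sox21a EBs and 4.14, 2.23 and 4.14 in control EBs. All Sox21a libraries were above the detection limit and all control libraries below it. With a mean of 8.23 over the 6 libraries skl fell under the filter and has no main test. Its difference on the log2 scale was 1.61, and in a fit of all transcripts without a filter, an alternative, it had a limma adjusted p of 0.0283. Above the smallest value there were 33 reads in Sox21a EBs and 4 in control EBs, a ratio of 7.74 with an exact 95% interval of 2.75 to 30.1 on the same assumption, and the ratio of the deposited means was 3.70.

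In contrast to these, hid (FBgn0003997, at 18167745 to 18185641 on the minus strand of 3L, with 4 exons in the transcript measured) was abundant in both groups. It had 1440, 1386 and 991 normalized reads in Sox21a EBs and 1755, 1958 and 1622 in control EBs. All Sox21a libraries lay under all control libraries, but the gap between the nearest libraries was smaller than the spread among the Sox21a libraries. The mean was 1272 ± 245 in Sox21a EBs and 1778 ± 169 in control EBs (SD, n = 3 each). The log2 fold change was -0.50 (SE 0.19), which did not pass the threshold (limma adjusted p = 0.085). It did with a mean-variance trend (adjusted p = 0.041), and after rescaling with a block on the replicate number (log2 fold change -0.69, adjusted p = 0.0377).

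The Diap1 antagonist genes lie within 272 kb in the order hid, grim, rpr and skl, separated by 117, 93.1 and 40.1 kb. Of the 17 genes annotated over this stretch 15 were in the table, and only 3 of the 11 others passed the filter. Among these, CR45975 is a non-coding gene inside grim on the same strand (541 bp shared), and it averaged 4.32 ± 2.10 in Sox21a EBs and 296 ± 9.39 in control EBs, a log2 fold change of -5.89 (limma adjusted p = 4.0e-05). CR45974, which shares 749 bp with grim on the opposite strand, averaged 2.32 ± 0.59 in Sox21a EBs and 40.1 ± 5.04 in control EBs, a log2 fold change of -3.64 (limma adjusted p = 3.4e-05). Whether the counting used strand or shared reads between genes is not described, so these values and those of grim are not separate observations. The third tested gene, CG7320, lies 101 kb on the hid side of grim and was higher in Sox21a EBs, at 19.5 ± 5.93 against 2.81 ± 0.50 in control EBs (log2 fold change 2.39, limma adjusted p = 0.00057). Each of these 3 passed the filter only through the group in which it was higher. Another neighbour, CG13700, whose centre lies 3.57 kb from that of grim, was not tested and averaged 1.99 in Sox21a EBs, where all libraries were at the smallest value, and 13.8 in control EBs. Over the cluster, then, the calls ran in both directions, lower at grim and higher at CG7320 and rpr. The Sox21a gene is on the same arm, 4.19 Mb from grim, and the Sox21a flies were homozygous for the chromosome region that carries the mutation. Loss of Sox21a and other variants linked to it cannot be told apart in this design.

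**Figure D2:**
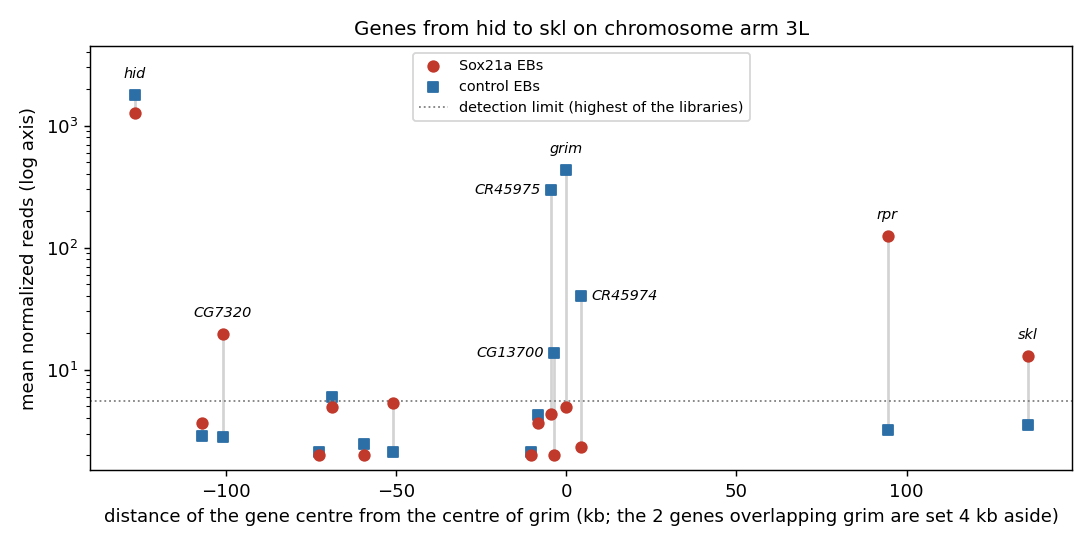
Mean normalized reads (log axis) of the 15 genes from hid to skl in Sox21a EBs (red circles) and control EBs (blue squares) by distance from the centre of grim in kb. Means of 435 in control EBs and 4.99 in Sox21a EBs mark grim, and rpr has the opposite order, at 3.19 in control EBs and 125 in Sox21a EBs. Most of the other genes lie near or under the detection limit (dotted).

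The genes whose pattern was most like that of grim over the 6 libraries, by Pearson correlation of log2 values among 7348 genes averaging 100 or more, were CR45975 within grim itself (r = 0.999), Acp53C14c (r = 0.999) and E(spl)mgamma-HLH (r = 0.998). Acp53C14c averaged 8.31 ± 2.93 in Sox21a EBs and 229 ± 26.5 in control EBs. It is on none of the marker lists used above, and the cells it came from were not tested. E(spl)mgamma-HLH, a Notch target of the Enhancer of split complex, averaged 14.6 ± 6.10 in Sox21a EBs and 346 ± 23.3 in control EBs. A total of 21 genes had r above 0.99, and since the libraries form 2 groups such values describe the group difference shared by these genes and carry no test.

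Diap1 (FBgn0260635, at 16038410 to 16051034 on the minus strand of 3L), the inhibitor that the antagonists act on, had 3924, 4492 and 5177 normalized reads in Sox21a EBs and 5797, 6946 and 4819 in control EBs. The groups overlapped, as the highest Sox21a library exceeded the lowest control library. Its log2 fold change was -0.36 (SE 0.19) and was not called (limma adjusted p = 0.18). Non-coding genes overlap Diap1 on the other strand, one of which, CR43951, averaged 40.5 ± 14.5 in Sox21a EBs and 8.63 ± 5.71 in control EBs (log2 fold change 2.24, limma adjusted p = 0.014).

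Dronc (FBgn0026404, at 9968479 to 9971002 on the plus strand of 3L), the initiator caspase, was higher in Sox21a EBs. It had 3627, 3757 and 4171 normalized reads in Sox21a EBs and 1734, 1248 and 1301 in control EBs. The Sox21a libraries were close to each other and all of them were above 2 times the highest control library. The mean was 3852 ± 284 in Sox21a EBs and 1428 ± 266 in control EBs (SD, n = 3 each), a 2.70-fold ratio, and the log2 fold change was 1.44 (SE 0.18, limma adjusted p = 0.0012). Its call held in each of the alternatives tried, with log2 fold changes of 1.25 to 1.59.

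Of the effector caspases Dcp-1 passed the test and Drice did not, and the difference between their changes was not tested. Dcp-1 (FBgn0010501, at 23551313 to 23553547 on the plus strand of 2R) had 1646, 1900 and 1826 normalized reads in Sox21a EBs and 336, 759 and 896 in control EBs. The groups lay apart, and the spread was mainly in the control libraries, of which replicate 1 was low. The log2 fold change was 1.55 (SE 0.35, limma adjusted p = 0.015), and without control replicate 1 it was 1.11. Over the 6 fits that left out 1 library each, the limma adjusted p of Dcp-1 ran from 0.0031 to 0.0496. The gene pita lies over the whole of Dcp-1 on the opposite strand and averaged 844 ± 104 in Sox21a EBs and 806 ± 56.8 in control EBs, a log2 fold change of 0.06 (limma adjusted p = 0.78).

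Drice (FBgn0019972, at 29799658 to 29801584 on the plus strand of 3R), the other main effector caspase, had 1766, 1800 and 1889 normalized reads in Sox21a EBs, against 1672, 1543 and 1905 in control EBs. The Sox21a libraries lay within the range of the control libraries. Its log2 fold change was 0.10 (SE 0.15, limma adjusted p = 0.64), and its sign turned after rescaling, to -0.10 (adjusted p = 0.58). Relative to the median of all transcripts, 0.21, the change of Drice was -0.11, while those of Dcp-1 and Dronc were 1.34 and 1.23.

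Buffy (FBgn0040491, at 11679492 to 11688557 on the plus strand of 2R) was measured at low levels, with 28, 33 and 34.4 normalized reads in Sox21a EBs and 18.6, 46.9 and 56.9 in control EBs. The control libraries spread to both sides of the Sox21a libraries. The log2 fold change was -0.21 (SE 0.39, limma adjusted p = 0.69). It rested on single libraries, since without control replicate 1 it was -0.69 and passed the threshold (adjusted p = 0.0202), and without control replicate 3 it was 0.09. CG13196 overlaps Buffy on the other strand, at 13.3 ± 3.52 in Sox21a EBs and 10.7 ± 4.25 in control EBs.

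**Figure D3:**
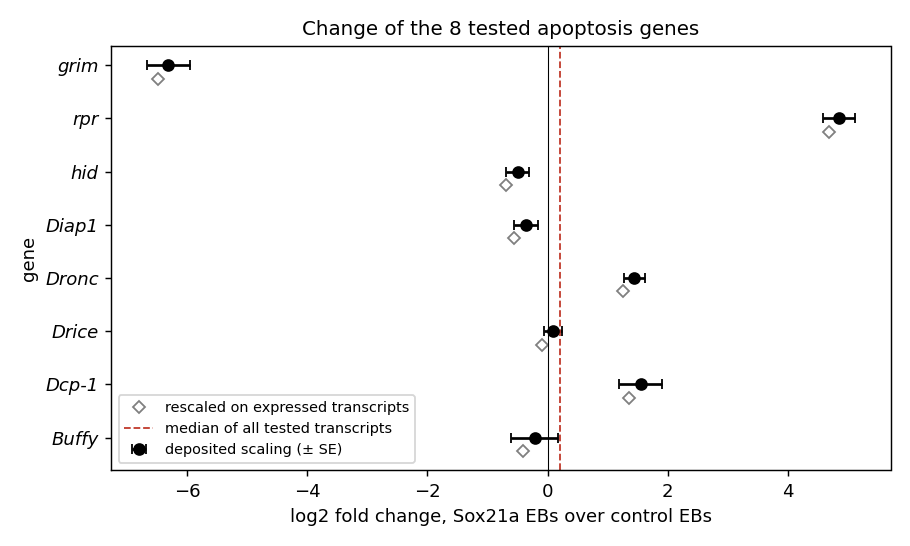
Log2 fold change, Sox21a EBs over control EBs, of the 8 tested genes (black, with SE) and the same after rescaling (open diamonds). The dashed line is the median of all tested transcripts, 0.21; grim at -6.31 and rpr at 4.85 lie farthest from it on opposite sides, and Drice changes sign with the rescaling.

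Levels were compared between genes only after division by transcript length. In Sox21a EBs the mean normalized reads per kb were 2245 for Diap1, 1911 for Dronc, 1024 for Dcp-1, 944 for Drice, 317 for hid, 139 for rpr, 30.6 for Buffy, 9.38 for skl and 2.94 for grim. In this order the ranges of Diap1 (1945 to 2565) and Dronc (1800 to 2070) overlapped, as did those of Dcp-1 (941 to 1086) and Drice (916 to 980), and the others did not. In control EBs the order was Diap1 at 2901, Drice at 886, Dronc at 709, hid at 443, Dcp-1 at 379, grim at 256, Buffy at 39.3, rpr at 3.54 and skl at 2.53, of which rpr and skl were under the detection limit in every library. Here the ranges of Drice and Dronc overlapped, as did those of hid (404 to 487) and Dcp-1 (192 to 512) and of Dcp-1 and grim (252 to 261). Among the Diap1 antagonists, hid was thus the most abundant in both groups, followed by rpr in Sox21a EBs and by grim in control EBs. The amplification started from the poly(A) end of the messengers, and how far this weights the per-kb levels by transcript length was not tested.

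**Figure D4:**
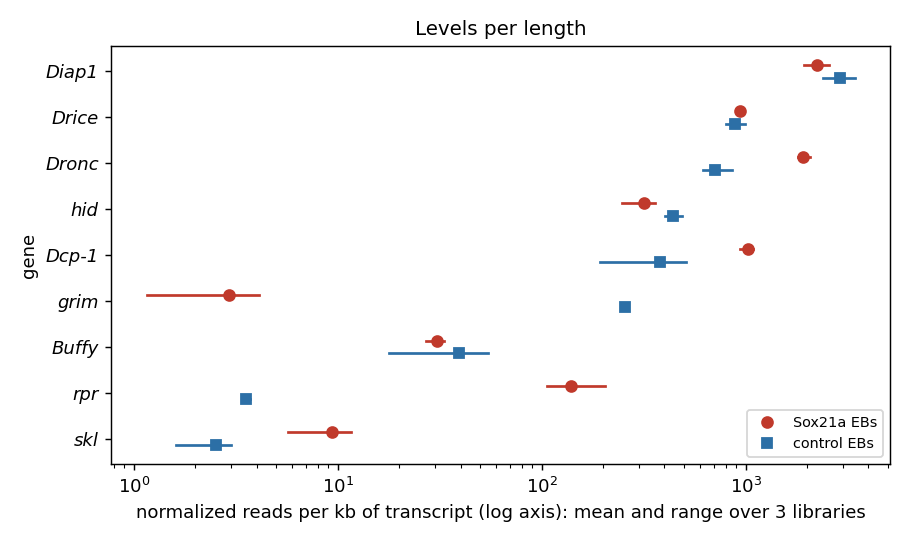
Normalized reads per kb of transcript (log axis) of the 9 genes, ordered by the control level, in Sox21a EBs (red circles) and control EBs (blue squares); points are means and lines the range over 3 libraries. The levels of grim (2.94 and 256) and rpr (139 and 3.54) differ in opposite directions between the groups, and Diap1 is the highest in both.

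Of 35 other genes of the cell death pathway all were in the table and 33 were tested, of which 11 were higher in Sox21a EBs (33.3%, against 23.6% of all transcripts) and 3 lower (9.09%, against 11.3%). Their median log2 fold change was 0.27. The largest rise was in the p53 arm, with 2 of 3 genes higher. p53 itself, the transcription factor of the DNA damage response known in fly embryos to activate rpr, had 10259, 8648 and 6555 normalized reads in Sox21a EBs and 1130, 505 and 474 in control EBs. These groups lay far apart, with a log2 fold change of 3.69 (SE 0.36, limma adjusted p = 0.00041). Corp, which encodes an interactor of p53, averaged 655 ± 158 in Sox21a EBs and 183 ± 62.4 in control EBs (log2 fold change 1.86, limma adjusted p = 0.0031), while lok, the checkpoint kinase upstream of p53, had a log2 fold change of 0.08 and was not called.

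Of the other initiator caspases, adaptors and apoptosome components, 3 of 6 tested were higher in Sox21a EBs and none was called lower. Over all transcripts 23.6% were called higher and 11.3% lower, and 6 genes are too few to set against these shares. Strica, a long-prodomain caspase, averaged 2519 ± 57.1 in Sox21a EBs and 729 ± 226 in control EBs (log2 fold change 1.84, limma adjusted p = 0.0016). Fadd, the adaptor of the caspase Dredd in immune signalling, averaged 495 ± 58.7 in Sox21a EBs and 223 ± 25.0 in control EBs (log2 fold change 1.15, limma adjusted p = 0.0025), and pit lies over the whole gene on the same strand. Cyt-c-p, the somatic cytochrome c, had a log2 fold change of 0.69. Ark, on which Dronc is assembled, averaged 1274 ± 87.3 in Sox21a EBs and 1404 ± 245 in control EBs and was not called (log2 fold change -0.13, limma adjusted p = 0.61). Of the remaining effector caspases, Decay was higher, at 13138 ± 792 in Sox21a EBs and 7366 ± 269 in control EBs (log2 fold change 0.83, limma adjusted p = 0.0043), and Damm was not called.

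None of the 5 genes of the IAP family and IAP turnover was called, with log2 fold changes from -0.13 for Bruce to 0.58 for morgue. With 23.6% of all transcripts called higher and 11.3% lower, 5 genes without a call are too few to read as a result. Among the Bcl-2 family and mitochondrial genes, Debcl, the other Bcl-2 protein of the fly, was lower, at 133 ± 9.42 in Sox21a EBs and 379 ± 110 in control EBs (log2 fold change -1.47, limma adjusted p = 0.0027). HtrA2, a mitochondrial protease, and BI-1, a membrane protein of the Bax inhibitor family, were higher, with log2 fold changes of 0.90 and 0.72. The direction of Debcl thus differed from that of the others called in this group, and AIF was not called.

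Of 6 DNA fragmentation genes, Drep4, the caspase-activated nuclease, was higher with a log2 fold change of 0.77, and Drep1, its inhibitor, was lower with -0.58. Of 4 tested engulfment genes, crq, a scavenger receptor, was higher (log2 fold change 0.80) and drpr, the engulfment receptor Draper, lower (-1.15), at 1903 ± 166 in Sox21a EBs and 4248 ± 780 in control EBs. Of the death ligand and receptors, grnd, a receptor for the ligand Eiger, was higher with 28.9 ± 7.13 in Sox21a EBs and 12.2 ± 5.83 in control EBs (log2 fold change 1.27, limma adjusted p = 0.042), and neither egr, the gene of Eiger, nor wgn was called. Over all transcripts 23.6% were called higher and 11.3% lower. These sets of 6, 4 and 3 tested genes are too few to set against those shares.

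Not all of these calls were stable. With a block on the replicate number the calls of Drep4 (adjusted p = 0.0721) and grnd (adjusted p = 0.0709) were lost, and after rescaling the same 2 were lost and Tango7 was called lower. Leaving out 1 library also ended calls, for Cyt-c-p without Sox21a replicate 2 or 3 or control replicate 2 (adjusted p = 0.0580 to 0.0617), for BI-1 without Sox21a replicate 1 or 2 or control replicate 2 (0.0502 to 0.0638), and for Drep4 without Sox21a replicate 2 or 3 or control replicate 2 or 3 (0.0994 to 0.101). The call of Drep1 was lost whenever a library other than control replicate 1 was left out (0.0578 to 0.124), and that of grnd whenever a Sox21a library or control replicate 2 was left out (0.0552 to 0.120). Without control replicate 1, 14 genes of the list were called higher and 4 lower, in place of 11 and 3. Over all transcripts that fit called 3424 higher and 1627 lower, in place of 2693 and 1293. Of the 13 called genes with a position in the annotation, 8 share bases with another gene on either strand, among them p53 and Corp.

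**Figure D5:**
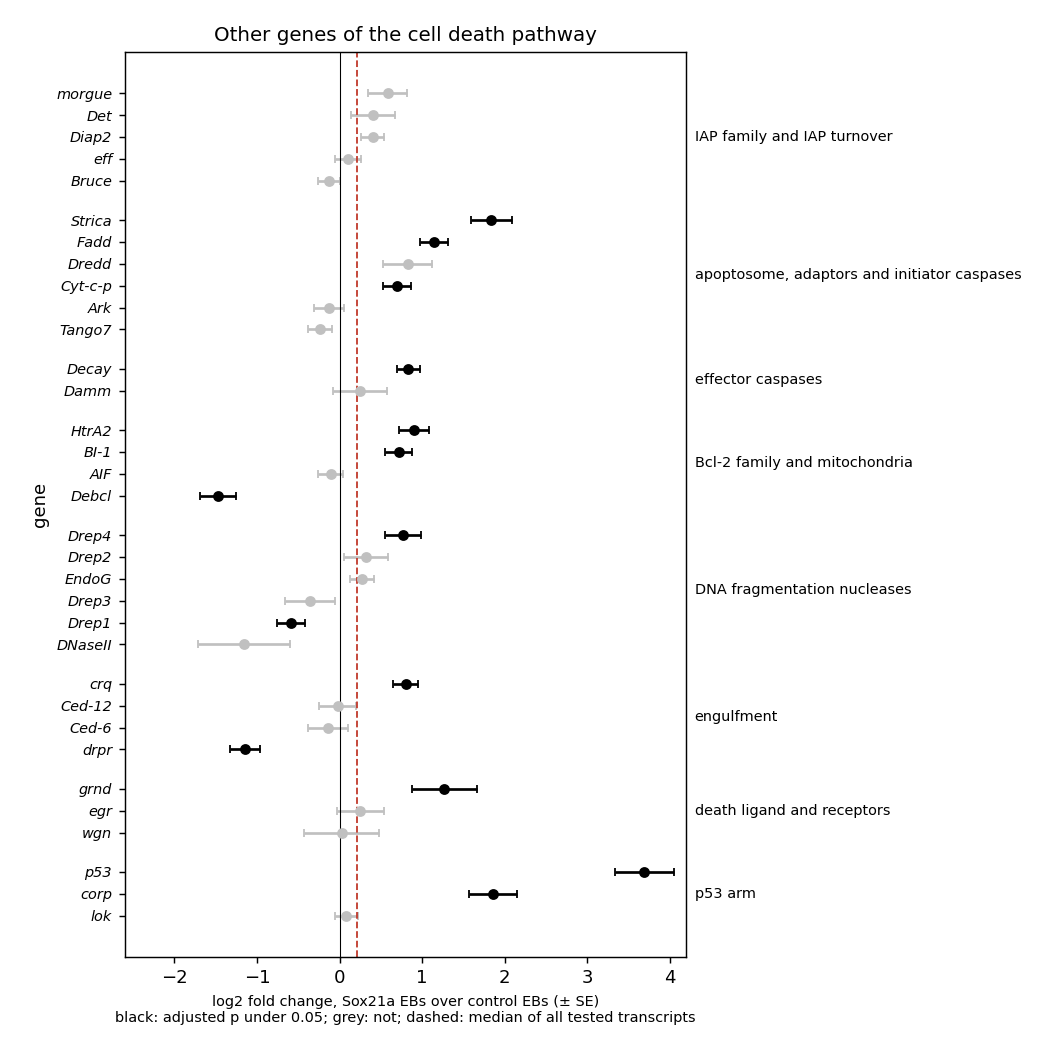
Log2 fold change with SE, Sox21a EBs over control EBs, of the 33 tested genes of the cell death pathway other than the 9, grouped by role; black points passed an adjusted p of 0.05 and grey points did not. The dashed line is the median of all tested transcripts, 0.21; p53 at 3.69 lies farthest above it and Debcl at -1.47 farthest below among the genes called.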

How the data were processed

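Per the methods, the authors aligned read pairs by Bowtie2 (genome release 6), counted the pairs falling in exons, and scaled the counts by size factors. The deposited unit is a signal, normalized reads per transcript. In each library all values were whole multiples of a step (tolerance 1e-06) with 2 steps as the smallest, and whether these were added or set as a floor is not described. The authors' own group means, fold changes and p-values were also deposited and were not used. RNA was amplified linearly before library preparation. Replicates were separate pools of flies.

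Each gene had 1 transcript among the 9, and otherwise the transcript with the highest mean was used. Transcripts averaging 10 or more over the 6 libraries were fitted as log2(value + 1), Sox21a EBs minus control EBs, in limma 3.58.1 under R 4.3.3 (lmFit, then eBayes with no trend). Fold changes on this scale understate those of low transcripts. Scripts were tested on simulated data. Exact intervals (scipy 1.17.1) are on reads above the smallest value, as if 2 had been added to each count. Positions and transcript lengths are from the Ensembl annotation of the same assembly, in which 17018 of 17321 gene identifiers matched. Figures were drawn in matplotlib 3.10.9, and tables handled in pandas 2.3.3 and numpy 2.4.6 (Python 3.11.15).

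The genes, gene lists, markers and alternatives were chosen with earlier results of these data known. The named genes are the 9, the called genes of the list of 35, the tested genes from hid to skl, the 3 genes most like grim, and Sox21a. Ark, lok, Bruce, morgue, AIF, Damm, egr, wgn, Tango7 and CG13700 were added after their values were seen. So were the genes overlapping Diap1, Dcp-1, Buffy, Fadd and drpr, and the markers sls, srp, He, btl, pros, Tk, CCHa2 and NPF. The replicate numbers of the sample titles were taken as pairs only in the fits with a replicate block, and the main fit had no pairing. The block was tried because deviations from the group means correlated at 0.171, 0.129 and 0.124 for the 3 same-numbered pairs. For the others they correlated at -0.184 to 0.051.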

Additional observations from a re-analysis of the deposited data

How the results depend on the processing

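Over the alternatives, 128 values of the log2 fold change of the 9 genes kept their direction and their side of the threshold (for skl, moved by less than the spread), 3 turned, 3 newly passed the threshold and 2 moved. Drice turned to -0.098 after rescaling, with or without the replicate block, and Buffy ran from -0.688 to 0.0928 when single libraries were left out. The log2 difference of skl was 0.75 with a pseudocount of 10 and 2.42 with the smallest value subtracted. The passes were those of hid (limma adjusted p = 0.041 with a trend, 0.0377 with rescaling and block) and of Buffy without control replicate 1 (0.0202). The number of the 9 genes called lower was 2 in place of 1 with a limma trend and after rescaling with the replicate block, hid being added both times, and 1 to 2 when 1 library was left out, Buffy being added without control replicate 1. That rescaling with the block was chosen after seeing the data. Without a filter skl was the fourth gene called higher, and a mean of at least 100 left rpr and Buffy untested. Genes of the list called higher were 7 at an adjusted p under 0.01, and 7 to 14 over the fits without 1 library, against 11. Over all transcripts the calls were 1308 higher and 597 lower at an adjusted p under 0.01, 1651 to 3424 higher and 792 to 1627 lower without 1 library, and 1948 lower after rescaling with the block. The replicate block gave 3 of the 9 genes higher and 1 lower, 9 and 3 of the list, and 2864 and 1380 of all transcripts, and it changed no call of the 9 genes and none of the list beyond Drep4 and grnd. The cause of these shifts was not tested. Tests on counts were planned but not run. Values were whole steps, but reads follow from them only if 2 was added to each count, which is not described. No gene of the 9 had a second transcript to try. With 3 libraries a group, differences as small as that of hid were at the limit of the test, and levels of 5 steps or less were not resolved.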
